A study of Homo sapiens with 9 samples.

Results

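STAT factors carry the signal of cytokine receptors to the nucleus, SOCS proteins switch that signal off, and PIM kinases are among the products of STAT-driven transcription. The 10 genes described here are 4 STAT genes (STAT3, STAT5A, STAT5B and STAT6), 4 inhibitor genes (SOCS1, SOCS2, SOCS3 and CISH) and 2 kinase genes (PIM1 and PIM2). They were taken by symbol, as a signalling family, out of 57500 genes in the count tables.

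When a cytokine binds, its receptor brings JAK kinases together, and these phosphorylate STAT proteins, which pair and bind DNA. SOCS1, SOCS3 and CISH are themselves switched on by STATs and then block JAKs or receptors, so that the pathway limits itself. In B cells, STAT6 is known for interleukin 4 responses, STAT3 for interleukin 10 and interleukin 21 responses, and STAT5 for survival signals, while PIM kinases support growth and survival in lymphomas.

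The cells were BJAB, a human B lymphoma line that the labels describe as a Burkitt lymphoma tumour. TACI, encoded by TNFRSF13B, is a B cell receptor for the TNF family ligands BAFF and APRIL, and it exists as a long and a short splice form. The control group was the parental line, the TACI long group carried an introduced long form, and the TACI short group carried an introduced short form, with 3 libraries each. All groups were labelled untreated, and polyA RNA came from sorted cells. The introduction of TACI is called a stable transfection in one label and a transduction in another. No empty-vector line was among the samples used here, so the introduced isoform cannot be told apart from the making of the line. The labels give neither the promoter of the construct nor whether a line was a clone, and they do not say whether replicates were separate cultures. All p-values therefore rest on library-to-library spread, and this spread may be purely technical.

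Total counts ranged from 40322136 to 50079203 per library. TNFRSF13B was at 14.6 to 28.8 CPM (the count scaled to the library's total) in the controls, 691 to 738 in TACI long and 2650 to 2970 in TACI short, so isoform and amount of TACI RNA differed together. Counts per gene do not assign this RNA to an isoform. The summed level of 8 B cell markers was 3060 to 3900 CPM in every library. The 10 macrophage and monocyte markers summed to 11.8 to 29.8 CPM in 7 libraries and to 129 and 125 CPM in TACI short 2 and TACI short 3. These 2 libraries also had a count for 32882 and 32209 genes, against 24307 to 25938 in the other 7. In bulk RNA, fewer cells of a type and less RNA per cell cannot be told apart.

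Of the 10 genes, 7 were well expressed in every library, and SOCS2, SOCS3 and CISH were nearly silent. Against the controls, TACI long had lower STAT3, STAT5B, STAT6 and PIM2 and slightly higher SOCS1 and PIM1. TACI short had higher SOCS1, PIM1, STAT5A and PIM2, by 2.51-fold, 2.12-fold, 1.84-fold and 1.42-fold, with a small rise of STAT3. Every one of the 7 was higher in TACI short than in TACI long, by 1.35-fold (STAT6) to 2.01-fold (SOCS1).

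The fold changes come from edgeR's quasi-likelihood test with TMM scaling, and a gene was called when its Benjamini-Hochberg adjusted p over all 16672 genes tested was under 0.05. Of the 10 members, 8 entered that test. SOCS2 and CISH had too few counts, and SOCS3 passed the filter only through its counts in TACI short, so that it had to differ. In TACI long against control, 2 of the 8 were called higher and 4 lower, where 51.1% of all tested genes were called, 25.2% higher and 25.9% lower. In TACI short against control, 6 were called higher and 0 lower, where 62.6% of all genes were called, 31.5% higher and 31.1% lower. In TACI short against TACI long, 8 were called higher and 0 lower, where 68.8% of all genes were called, 35.2% higher and 33.6% lower. The median log2 change of the 8 was -0.43, 0.70 and 0.88 in the 3 comparisons, beside -0.003, 0.03 and 0.05 over all genes. Counting without SOCS3, the calls were 2 higher and 4 lower, 5 higher, and 7 higher. The middle log2 change of those 7 was -0.39 (PIM2), 0.51 (PIM2) and 0.87 (STAT3), so SOCS3 raised the TACI short median against control. The comparisons share their control or TACI libraries and are not independent of each other.

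TMM scaling lowered the TACI short values by a small step against plain CPM. The median change over all genes in TACI short against control was 0.03 on the log2 scale with TMM, 0.11 with upper-quartile factors and 0.15 with column totals alone. The share of higher calls was 50.4% with TMM and 64.5% with column totals in that comparison, and 51.2% and 62.3% in TACI short against TACI long. Printed CPM values use column totals, so a small excess of TACI short in them can vanish in the fold change.

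**Figure D1:**
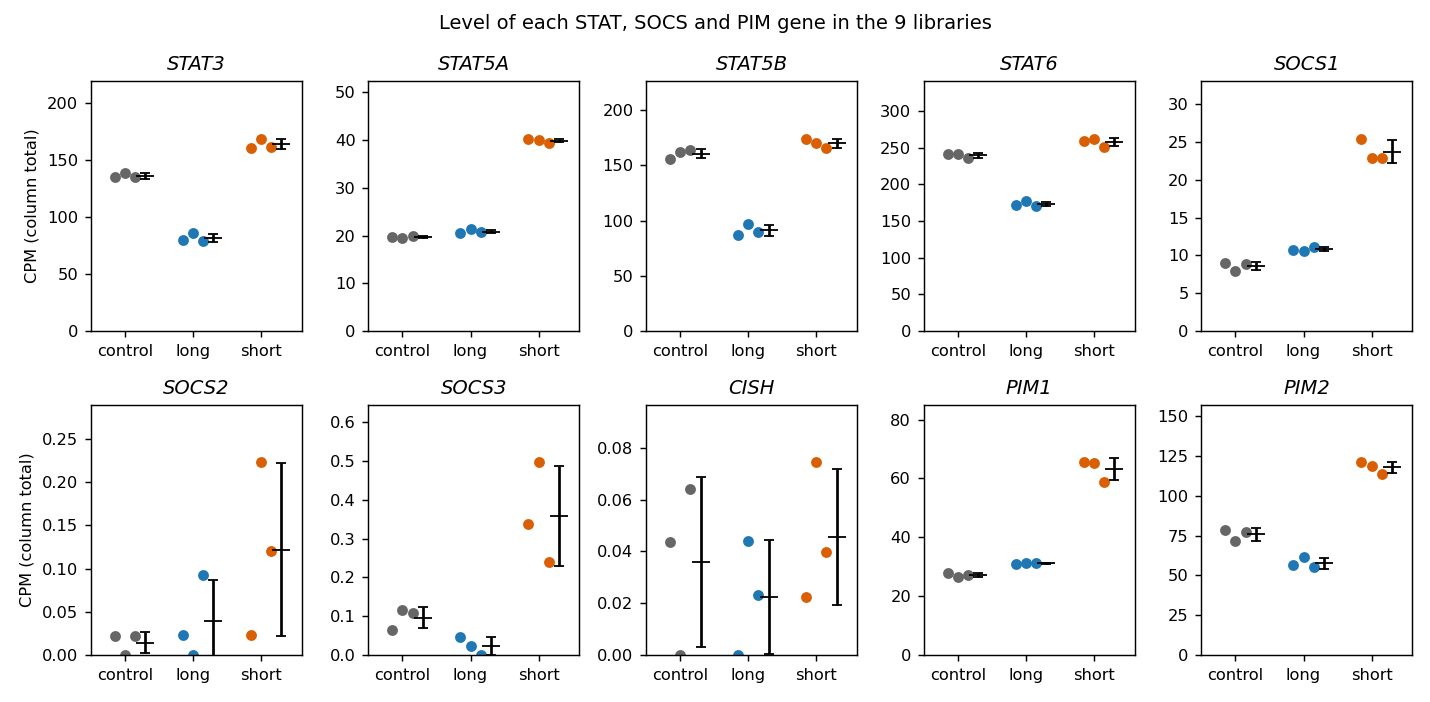
Level of each of the 10 genes in CPM (vertical axes from 0, scaled per gene), 1 point per library, with the mean and SD of 3 libraries as a black bar. STAT3, STAT5A, STAT5B, STAT6, SOCS1, PIM1 and PIM2 have their 3 TACI short points above all others. For STAT5B and STAT6 that excess over control is small and was not called. STAT3, STAT5B, STAT6 and PIM2 have their 3 TACI long points below all others. The share of all genes with such orders was not counted. With column totals, as drawn here, 64.5% of all genes called in TACI short against control were higher. SOCS2, SOCS3 and CISH stay under 1 CPM, and SOCS3 shows both orders.

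**Figure D2:**
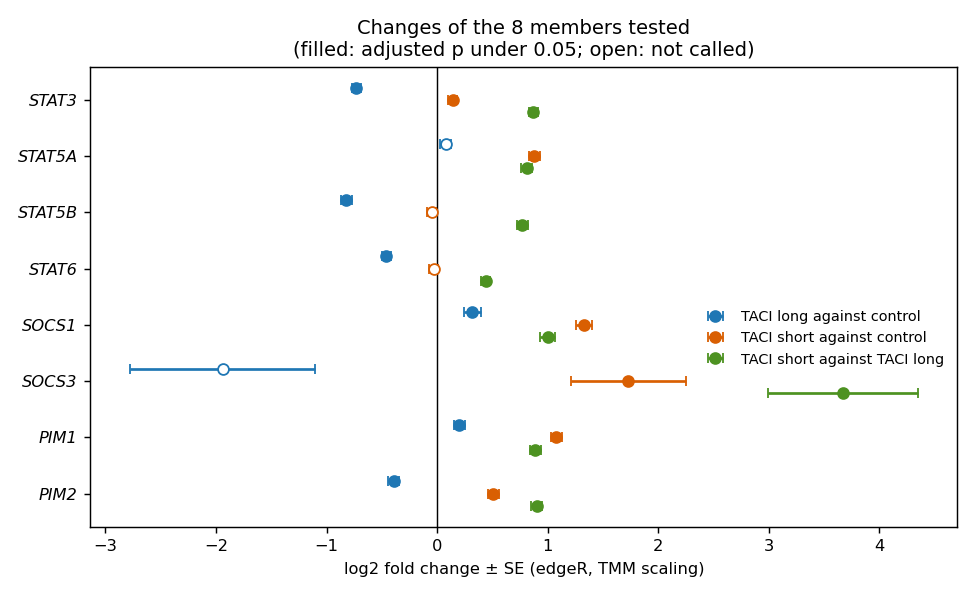
Log2 fold change (horizontal axis) with its SE for the 8 genes tested, in 3 comparisons, with filled points for calls at an adjusted p under 0.05 and open points for the rest. All 8 green points, TACI short against TACI long, lie to the right of 0. SOCS3 is among them and was tested only because of its counts in TACI short, so its TACI short points had to lie there. STAT3 and PIM2 have called changes on both sides of 0 against the controls.

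STAT3 is the transducer of interleukin 6, interleukin 10 and interleukin 21. It stood at 135, 139 and 135 CPM in the 3 controls, at 80.4, 86.3 and 79.4 CPM in TACI long, and at 161, 169 and 162 CPM in TACI short. The 3 groups did not overlap, with TACI long lowest and TACI short highest. STAT3 was 1.66-fold lower in TACI long than in control (log2 change -0.73 ± 0.04 SE, edgeR adjusted p = 6.85e-13). It was 1.10-fold higher in TACI short than in control (0.14 ± 0.04, edgeR adjusted p = 0.0047). That small rise lost its call without control replicate 1, 2 or 3 (edgeR adjusted p = 0.0522, 0.0539 and 0.0853) and with no low-count filter (edgeR adjusted p = 0.0678). Between the lines, STAT3 was 1.82-fold higher in TACI short (0.87 ± 0.04, edgeR adjusted p = 1.05e-14).

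STAT5A and STAT5B are close relatives that answer to the interleukin 2 family of cytokines and to growth hormone-type receptors. STAT5A was at 19.8, 19.6 and 20.0 CPM in the controls, at 20.5, 21.3 and 20.8 CPM in TACI long, and at 40.3, 40.0 and 39.5 CPM in TACI short. The TACI short libraries were at about the same level as each other and far above the other 6, and TACI long lay just above control without overlap. The excess in TACI long was not called (log2 change 0.08 ± 0.05, edgeR adjusted p = 0.225). TACI short was 1.84-fold above control (0.88 ± 0.05, edgeR adjusted p = 3.35e-13) and 1.75-fold above TACI long (0.81 ± 0.05, edgeR adjusted p = 9.15e-13).

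STAT5B, the more abundant of the pair, fell in TACI long and did not pass the test in TACI short. Its levels were 156, 162 and 164 CPM in the controls, 87.4, 96.7 and 89.3 CPM in TACI long, and 174, 170 and 166 CPM in TACI short. TACI long was far below both other groups, and the controls and TACI short were close together without overlapping. STAT5B was 1.76-fold lower in TACI long than in control (log2 change -0.82 ± 0.05, edgeR adjusted p = 5.25e-13). TACI short did not pass the test against control (-0.05 ± 0.04, edgeR adjusted p = 0.383), and the sign of that value rested on the scaling, since it was 0.08 with column totals and 0.04 with upper-quartile factors. It was 0.03 without TACI short 2 and 3. Against TACI long, TACI short was 1.71-fold higher (0.77 ± 0.05, edgeR adjusted p = 5.85e-13).

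The 2 STAT5 genes could therefore be set against each other inside each library, where scaling cancels. Counts per base of exon gave a STAT5A to STAT5B ratio of 0.142, 0.136 and 0.136 in the controls, 0.263, 0.246 and 0.261 in TACI long, and 0.259, 0.263 and 0.267 in TACI short. Both TACI lines lay above every control, and they overlapped with each other. In TACI long the called gene of the pair was STAT5B, which was lower, and in TACI short it was STAT5A, which was higher. With 3 libraries against 3 an exact two-sided permutation test cannot go below p = 0.1, and it gave exact p = 0.1 for each line against control and 0.4 between the lines. Over 6 such comparisons of ratios the adjusted values of these permutation tests were 0.15, 0.15 and 0.48.

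STAT3, STAT5A and STAT5B lie side by side on chromosome 17 (hg38, as in the count tables). STAT5B spans chr17:42199168-42276707 on the minus strand, STAT5A chr17:42287547-42311943 on the plus strand and STAT3 chr17:42313324-42388568 on the minus strand. The gap from STAT5B to STAT5A is 10839 bases and that from STAT5A to STAT3 is 1380 bases. The gene in the middle, STAT5A, was the only one of the 3 not called lower in TACI long, and the only one of the 3 with a change above 1.5-fold in TACI short against control. Of the 50-base stretches in GENCODE 29 transcripts of STAT5A, 8.61% also occur in another gene, in every case STAT5B, so that most of its sequence is its own. How the authors' counting treated reads that fit both genes is not given in the sources used here.

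STAT6, the transducer of interleukin 4 and interleukin 13, was the most abundant of the 4. It was at 241, 241 and 236 CPM in the controls, 172, 177 and 171 CPM in TACI long, and 259, 262 and 251 CPM in TACI short. TACI long was lowest without overlap, and TACI short was a little above the controls in CPM. STAT6 was 1.38-fold lower in TACI long than in control (log2 change -0.46 ± 0.04, edgeR adjusted p = 1e-09) and 1.35-fold higher in TACI short than in TACI long (0.44 ± 0.04, edgeR adjusted p = 1.09e-09). TACI short against control gave -0.03 ± 0.04 (edgeR adjusted p = 0.58). With column totals alone that comparison turned to 0.10 and was called (edgeR adjusted p = 0.00492), so whether STAT6 differed there depended on the scaling. It was 0.06 with upper-quartile factors, 0.01 with a filter of 1 CPM in 3 libraries and 0.02 without TACI short 2 and 3. The gene lies at chr12:57095408-57132139 on the minus strand, and its exons overlap those of NAB2 by 69 bases and of LRP1 by 59 bases, which is 0.945% and 0.808% of its exon length.

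SOCS1, which binds and inhibits JAK kinases, showed the largest change of the well-expressed genes. It was at 9.0, 7.99 and 8.89 CPM in the controls, 10.7, 10.6 and 11.1 CPM in TACI long, and 25.4, 22.9 and 22.8 CPM in TACI short. The groups formed 3 steps without overlap, a low one above the controls in TACI long and a high one in TACI short. SOCS1 rose 1.25-fold in TACI long (log2 change 0.32 ± 0.08, edgeR adjusted p = 0.000975) and 2.51-fold in TACI short (1.33 ± 0.07, edgeR adjusted p = 3.28e-13). TACI short was 2.01-fold above TACI long (1.00 ± 0.07, edgeR adjusted p = 1.99e-11). Its highest library was TACI short 1, the one without raised macrophage markers, and without TACI short 2 and 3 the change against control was 1.47. The gene is short, at chr16:11254405-11256179 on the minus strand, and shares no 50-base stretch with another gene in GENCODE 29.

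SOCS3, the inhibitor of receptors that use the gp130 chain, was near the limit of detection. The controls held 3, 5 and 5 counts (0.0652, 0.115 and 0.107 CPM), TACI long 2, 1 and 0 counts (0.0473, 0.0219 and 0 CPM), and TACI short 15, 20 and 12 counts (0.338, 0.496 and 0.240 CPM). TACI short was highest in every library, and a count of 0 in TACI long 3 allows up to 0.0695 CPM. From the summed counts, TACI short was 3.65 times control (exact 95% interval 1.94 to 7.36, counting error only). Since SOCS3 was tested only because of these TACI short counts, the ratio is a description and no p-value is read from it.

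The lower SOCS3 of TACI long was not called (log2 change -1.94 ± 0.84, edgeR adjusted p = 0.0573). It passed with limma-voom (adjusted p = 0.0302) and without TACI long replicate 1 (edgeR adjusted p = 0.0467). The ratio of summed counts of TACI short to TACI long was 15.2 (exact 95% interval 4.9 to 76.5, counting error only), again as a description, and its denominator is 3 counts. SOCS3 lies at chr17:78356778-78360077 on the minus strand.

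SOCS2, which acts on growth hormone signalling, had 1, 0 and 1 counts in the controls, 1, 0 and 4 in TACI long, and 1, 9 and 6 in TACI short. TACI short 1 was at the level of the other groups, and the higher values were in TACI short 2 and TACI short 3, the libraries with the raised macrophage markers. The part of those markers in the SOCS2 counts was not tested. Summed counts of TACI short over control gave a ratio of 8.08 (exact 95% interval 1.9 to 72.5, counting error only). SOCS2 did not enter the main test, and with no low-count filter TACI short against control had a log2 change of 2.67 (edgeR adjusted p = 0.0479). It has 277 bases of exon overlap with SOCS2-AS1 on the opposite strand, and the library kit used does not keep strand.

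CISH, an inhibitor named for its rapid induction by cytokines and a classical STAT5 target, was not detected above a few reads. The controls held 2, 0 and 3 counts, TACI long 0, 2 and 1, and TACI short 1, 3 and 2. The groups overlapped, and TACI short over control was 1.21 (exact 95% interval 0.308 to 5.02), so a change within that interval was not detectable at this depth. Its exons overlap those of MAPKAPK3 on the opposite strand by 218 bases. MAPKAPK3 was at 71.5 to 76.5 CPM in the group means, and reads of the 2 genes in the overlap cannot be told apart without strand.

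The bases in front of 3 inhibitor and kinase genes are printed. CISH is the member with the most STAT-type matches, and SOCS1 and PIM1 rose most of the 7 well-expressed members. Whether such matches bear on the levels was not tested. RefSeq start sites (GRCh38.p14) were found for 9 of the 10 members, with 12 start sites in all. The 250 bases before each start were searched on both strands for TTCNNNGAA, a palindrome that STATs can bind, for the same palindrome with 1 more N in the middle, and for the NF-kB consensus. Of 35116 promoters, 6.57%, 5.38% and 5.21% hold these motifs in that order. CISH is shown for chr3:50611832-50612024 (minus strand), SOCS1 for chr16:11256205-11256454 (minus strand) and PIM1 for chr6:37169902-37170151 (plus strand), each 5′ to 3′ with TTCNNNGAA matches in capitals.
CISH: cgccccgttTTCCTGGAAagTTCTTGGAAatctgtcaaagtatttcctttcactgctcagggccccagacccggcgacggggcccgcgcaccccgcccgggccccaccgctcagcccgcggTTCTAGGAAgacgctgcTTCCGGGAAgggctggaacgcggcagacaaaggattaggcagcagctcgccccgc
SOCS1: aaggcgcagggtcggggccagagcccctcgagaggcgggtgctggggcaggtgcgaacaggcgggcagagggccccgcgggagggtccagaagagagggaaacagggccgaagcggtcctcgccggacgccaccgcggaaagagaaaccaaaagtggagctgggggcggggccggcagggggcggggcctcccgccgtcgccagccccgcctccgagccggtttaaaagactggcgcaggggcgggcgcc
PIM1: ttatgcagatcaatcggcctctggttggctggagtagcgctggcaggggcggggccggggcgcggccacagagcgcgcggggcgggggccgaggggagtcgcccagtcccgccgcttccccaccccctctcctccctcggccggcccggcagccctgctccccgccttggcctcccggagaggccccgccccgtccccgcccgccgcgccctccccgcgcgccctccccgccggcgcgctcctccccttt

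The CISH stretch holds 4 matches, TTCCTGGAA, TTCTTGGAA, TTCTAGGAA and TTCCGGGAA, whose first bases lie 241, 230, 129 and 112 bases before the start. That start, at chr3:50611774, lies inside the gene as counted. The printed CISH stretch stops where the counted gene begins, so it ends short of the start. Only 5 of the 35116 promoters hold 4 or more. STAT5A had 1 match to the wider palindrome (TTCCTCTGAA, 229 bases before its first start) and 1 to the NF-kB consensus (GGGGGACCCC, 219 bases before another start). That other start, at chr17:42288498, and the NF-kB match both lie inside STAT5A as counted. These letters were not found in the windows of STAT3, STAT5B, STAT6, SOCS1, SOCS3, PIM1 and PIM2. The SOCS3 starts lie at chr17:78360925, upstream of the gene as counted, and at chr17:78359667, inside it. The bases directly before the counted SOCS3 gene were therefore not searched. The STAT6 start, at chr12:57110289, lies inside the gene as counted, and its window does too. The STAT5B window, chr17:42276392-42276641, also lies wholly inside its gene. The bases before the STAT6 and STAT5B genes as counted were therefore not searched either. The STAT3 window, chr17:42388443-42388692, lies partly inside its gene. A match describes letters and does not show that a factor bound there.

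PIM1 is a serine/threonine kinase that promotes survival and cell cycle entry, and its gene is a known STAT target. Its levels were 28.0, 26.5 and 27.2 CPM in the controls, 31.0, 31.3 and 31.2 CPM in TACI long, and 65.4, 65.3 and 58.8 CPM in TACI short. As with SOCS1, the groups formed a low and a high step above the controls without overlap. PIM1 rose 1.15-fold in TACI long (log2 change 0.20 ± 0.05, edgeR adjusted p = 0.00325) and 2.12-fold in TACI short (1.08 ± 0.05, edgeR adjusted p = 2.02e-14). TACI short was 1.85-fold above TACI long (0.89 ± 0.05, edgeR adjusted p = 3.57e-13). The gene lies at chr6:37170203-37175426 on the plus strand.

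PIM2, a kinase of the same family with high levels in B lymphoid tumours, moved both ways. It was at 78.8, 71.4 and 77.2 CPM in the controls, 56.3, 61.6 and 55.2 CPM in TACI long, and 121, 119 and 114 CPM in TACI short. TACI long lay below every control and TACI short above every control. PIM2 fell 1.31-fold in TACI long (log2 change -0.39 ± 0.05, edgeR adjusted p = 7.93e-07) and rose 1.42-fold in TACI short (0.51 ± 0.05, edgeR adjusted p = 6.73e-09). The lines differed by 1.87-fold (0.90 ± 0.05, edgeR adjusted p = 2.62e-13). PIM2 lies on chromosome X, at chrX:48913182-48919024 on the minus strand.

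Within a library, the PIM1 to PIM2 ratio of counts per base of exon was 0.330, 0.344 and 0.326 in the controls. It was 0.511, 0.471 and 0.525 in TACI long, and 0.502, 0.510 and 0.477 in TACI short. Again both lines were above every control and overlapped with each other. The exact two-sided permutation test gave p = 0.1 for each line against control, the smallest it allows, and p = 0.7 between the lines (adjusted 0.15, 0.15 and 0.70 over the 6 comparisons of ratios).

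**Figure D3:**
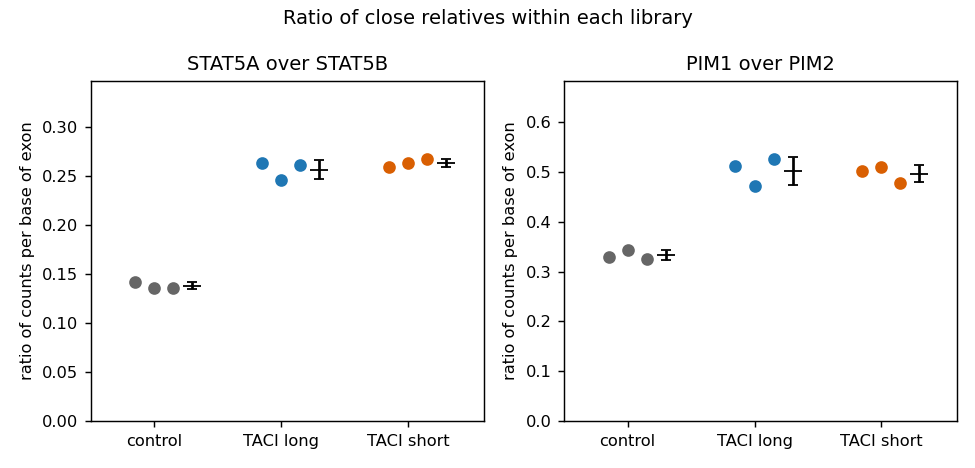
Ratio of counts per base of exon within each library (vertical axes from 0), for STAT5A over STAT5B on the left and PIM1 over PIM2 on the right, with the mean and SD of 3 libraries as a black bar. Both ratios are higher in all 6 TACI libraries than in the 3 controls, with means of 0.138, 0.257 and 0.263 on the left and 0.333, 0.502 and 0.496 on the right.

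Levels of different genes were compared as CPM per kilobase of exon. In the controls the order was STAT6 (32.8), PIM2 (27.5), STAT5B (24.9), STAT3 (15.4), PIM1 (9.15), SOCS1 (7.04), STAT5A (3.44) and SOCS3 (0.035), and no neighbours among these overlapped. CISH (0.00703) and SOCS2 (0.00212) overlapped at the bottom. STAT6 was above 90.9% of all tested genes on this scale and STAT5A above 54.9%.

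In TACI long, STAT6 (23.8 CPM per kilobase) stayed first, and PIM1 (10.5) passed STAT3 (9.31), which overlapped with SOCS1 (8.82). In TACI short, PIM2 (42.7) was first, ahead of STAT6 (35.3) and STAT5B (26.4). PIM1 (21.2), SOCS1 (19.3) and STAT3 (18.6) followed, each overlapping with its neighbour in that run. STAT5A kept its place as the lowest of the 7 well-expressed genes in all groups, at 3.44, 3.63 and 6.94.

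**Figure D4:**
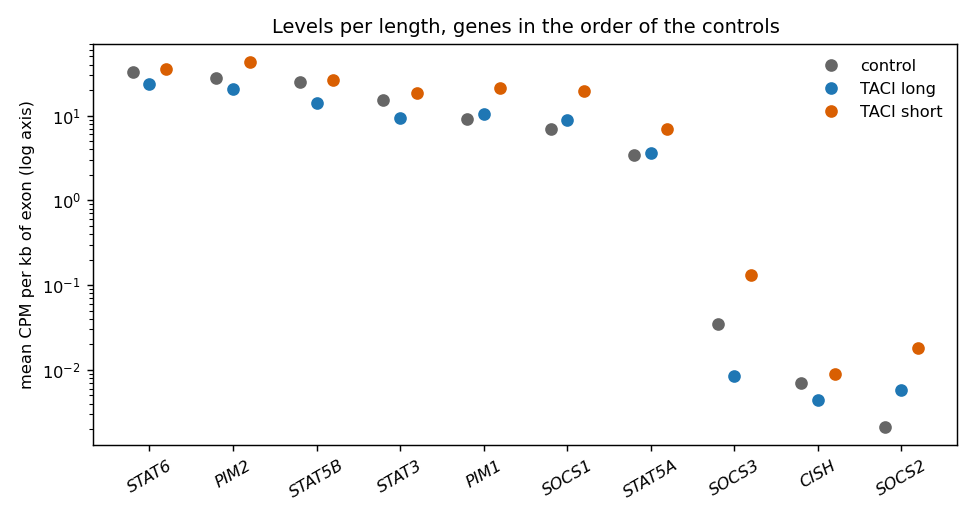
Mean level of the 10 genes in CPM per kilobase of exon (log axis), genes ordered as in the controls, 1 point per group as the mean of 3 libraries. The first 7 genes lie between 3.44 and 42.7, and SOCS3, CISH and SOCS2 lie at 0.131 or below.

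Among the other genes of the machinery, the 4 JAK kinases stand directly above the STATs. In TACI long, 3 of 4 were called lower and 0 higher, where 51.1% of all tested genes were called either way (25.2% higher, 25.9% lower). In TACI short, 3 of 4 were called higher and 0 lower, where 62.6% of all genes were called (31.5% higher, 31.1% lower), and with 4 genes these counts say little beyond those shares. Their median log2 change was -0.21 and 0.70. JAK3, which serves receptors with the common gamma chain, was at 0.978, 1.26 and 1.18 CPM in the controls, 0.0473, 0.0877 and 0 CPM in TACI long and 17.6, 20.2 and 13.8 CPM in TACI short. TACI long thus held almost no JAK3 counts and TACI short the most. JAK2 rose 2.17-fold in TACI short (log2 change 1.12 ± 0.12, edgeR adjusted p = 3.79e-08), and TYK2 fell 1.17-fold in TACI long and rose 1.21-fold in TACI short (edgeR adjusted p = 0.000191 and 1.33e-05).

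Of the other STAT genes, STAT2 and STAT4 are described here. STAT4, better known from T and NK cells, was at 0.0870, 0.0918 and 0.107 CPM in the controls and 1.15, 1.29 and 1.48 CPM in TACI short. It passed the low-count filter only through TACI short, as SOCS3 did, so these levels are a description with no test. In TACI long STAT4 was at 0.213, 0.0439 and 0.0464 CPM, on both sides of the controls. The 9 T and NK cell markers summed to 3.82 to 6.77 CPM over all libraries, with 4.57, 6.77 and 5.45 CPM in TACI short, and their part in the STAT4 value was not tested. STAT2 fell 1.34-fold in TACI long and rose 1.20-fold in TACI short (edgeR adjusted p = 2.26e-07 and 5.93e-05).

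Of the 5 other SOCS and PIM genes, 2 were called higher and 2 lower in TACI long, and 1 higher and 1 lower in TACI short, beside 51.1% and 62.6% of all genes called either way. Their median log2 change was -0.13 and -0.03. PIM3, the remaining PIM kinase, fell 1.75-fold in TACI long (log2 change -0.81 ± 0.04, edgeR adjusted p = 1.4e-13), from 185 to 192 CPM in the controls to 108 CPM in each TACI long library. In the same line SOCS5 and SOCS4 rose 1.34-fold and 1.22-fold (edgeR adjusted p = 1.03e-05 and 1.11e-05). SOCS7 rose 1.29-fold and SOCS5 fell 1.17-fold in TACI short (edgeR adjusted p = 1.26e-06 and 0.00459).

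Of 12 other brakes on the pathway (PIAS proteins, phosphatases and adaptors), 5 were called higher and 3 lower in TACI long, and 5 higher and 4 lower in TACI short, beside 51.1% and 62.6% of all genes called. The median log2 change of the 12 was 0.11 and 0.06, close to that of all genes. PTPN6, the phosphatase SHP-1 that dephosphorylates JAKs and B cell receptor partners, fell 2.83-fold in TACI long (log2 change -1.50 ± 0.05, edgeR adjusted p = 4.07e-18), from 536 to 570 CPM to 194 to 195 CPM. SH2B3, an adaptor that restrains JAK2, fell 1.48-fold in TACI long and rose 2.03-fold in TACI short (edgeR adjusted p = 1.54e-09 and 1.62e-14). PIAS3, an inhibitor of STAT3, rose 1.54-fold in TACI short (edgeR adjusted p = 3.95e-09), and PIAS2 fell 1.45-fold there (edgeR adjusted p = 9.57e-10).

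**Figure D5:**
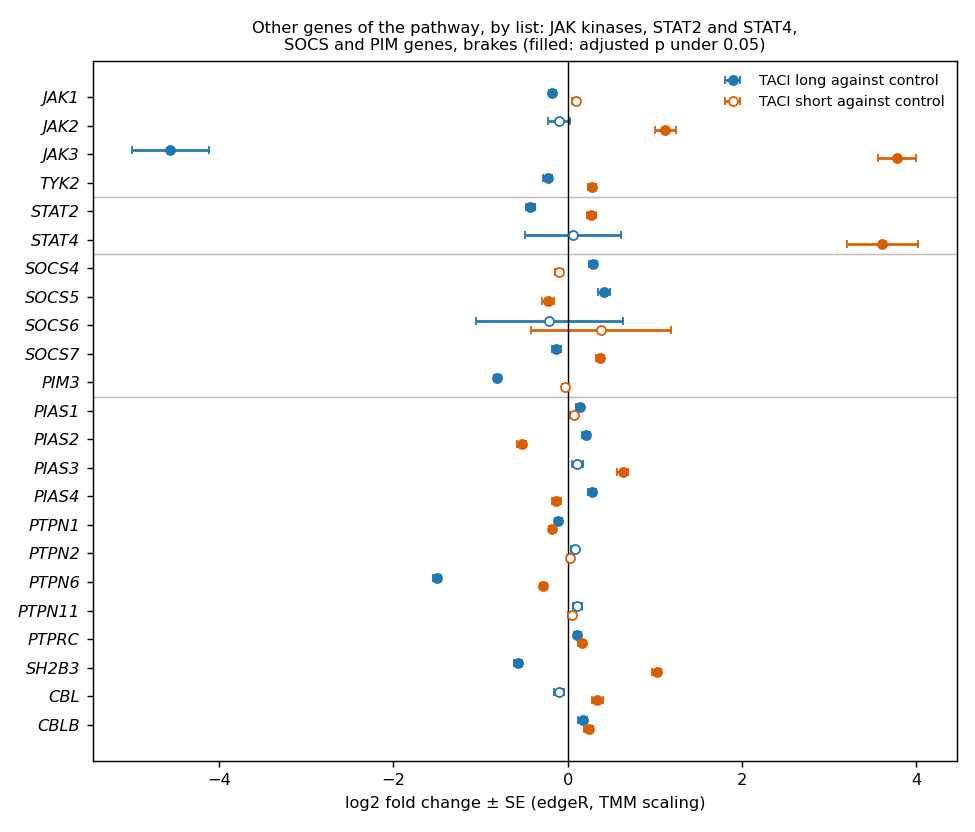
Log2 fold change with its SE for the JAK kinases, STAT2, STAT4, the other SOCS and PIM genes and the brakes, against control, in TACI long (blue) and TACI short (orange), with filled points for an adjusted p under 0.05. JAK3 lies far left in TACI long and far right in TACI short, STAT4 far right in TACI short (it was tested only because of its counts there), and most brakes lie within 1 log2 unit of 0.

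Among 11 tested genes known as STAT targets in lymphocytes, 3 were called higher and 6 lower in TACI long, and 7 higher and 2 lower in TACI short. Over all genes these shares were 25.2% higher and 25.9% lower in TACI long, and 31.5% and 31.1% in TACI short. BCL2L1, which encodes the survival protein BCL-XL, rose in both lines, by 1.49-fold and 1.51-fold (edgeR adjusted p = 2.84e-10 and 1.09e-10). IRF1, an interferon regulatory factor, rose 1.64-fold in TACI short (edgeR adjusted p = 3.85e-12), and the chemokine gene CCL22 rose 8.71-fold there (log2 change 3.12 ± 0.17, edgeR adjusted p = 2.61e-10). In TACI long the guanylate-binding protein gene GBP1 fell 4.08-fold (edgeR adjusted p = 8.45e-09) and CCND3, a cyclin, fell 1.33-fold (edgeR adjusted p = 3.25e-08). CCND3 was also 1 of the 2 called lower in TACI short, by 1.29-fold (edgeR adjusted p = 1.27e-07). The median log2 change of the 11 was -0.15 in TACI long and 0.43 in TACI short, beside -0.003 and 0.03 over all genes.

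Genes with the most similar pattern were sought among 10310 protein-coding genes over the 9 libraries, by the root mean square difference of log2 values centred on each gene's mean. STAT5B was closest to SREBF2 (difference 0.0351) and PIM3 (0.0414). PIM3 went from a mean of 188 CPM in control to 108 in TACI long and 201 in TACI short, the course of STAT5B itself. STAT5A was closest to GADD45A (0.0394) and MTHFD2 (0.0465), STAT3 to KCNAB2 (0.0456) and CCDC14 (0.0473), and STAT6 to KHDC4 (0.0211) and GARS (0.0289). For the genes that rose in both lines, PIM1 was closest to PPP1R26 (0.0452) and PYCR1 (0.0458), and SOCS1 to MYO1C (0.0746) and RND1 (0.0792). PIM2 was closest to CALCOCO2 (0.0446) and C6orf48 (0.0464). At the level of SOCS3 the pseudocount sets the pattern, so its closest genes are not given.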

How the data were processed

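PolyA RNA from sorted BJAB cells was sequenced from Nextera XT libraries, 3 per group. The deposited files hold raw counts per gene, and per the submitters' processing notes FastQC, STAR 2.4.0h and HTSeq were used with hg38. The column layout is that of featureCounts, and the annotation release is not given in the sources used here. Strand was not kept by this kit.

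The 57500 Ensembl identifiers were matched to GENCODE 29, which holds 56898 of them. CPM is the count over the column total. Changes were fitted with edgeR 4.0.16 (glmQLFit and glmQLFTest, TMM factors, all 9 libraries, 6 residual degrees of freedom) on the 16672 genes that passed filterByExpr, with Benjamini-Hochberg adjustment, a threshold of 0.05 and no covariate. The code was tested on simulated data. Ratios and intervals used SciPy 1.17.1 (exact permutation tests over libraries, exact conditional intervals of 95% for counts). Intervals cover counting error only. Alternatives were other scalings, filters, DESeq2 1.42.0, limma-voom (limma 3.58.1), the groups compared alone, a replicate block, and fits leaving out libraries. The genes named are the 10 members, TNFRSF13B, up to 3 called genes per list and comparison by adjusted p, and the 2 genes most like each member, searched at an average log2 CPM of at least 1 with a pseudocount of 0.5. Other genes were named as neighbours or overlapping genes of a member. The labels give the groups the same replicate numbers. Deviations of same-numbered libraries correlated at 0.417, 0.2 and 0.168 between control and TACI short. Differently numbered libraries were not compared, so these values cannot decide whether the numbers pair these groups. Pairs with TACI long ran from -0.255 to 0.104. The members and lists were chosen with earlier results of these data known. One gene of the lists is not reported here.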

Additional observations from a re-analysis of the deposited data

Results flagged for a closer look

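STAT3 and PIM2 were flagged among the members because their called changes against the same controls had opposite signs in the TACI lines. This was not particular to them, since STAT2, TYK2, SH2B3 and CDKN1B were also called lower in TACI long and higher in TACI short. Against control, 51.1% of all genes were called in TACI long and 62.6% in TACI short. The share called in opposite directions was not counted. The differences below are the comparison of TACI short against TACI long already given. In CPM, STAT3 was lower in 3 of 3 TACI long libraries and higher in 3 of 3 TACI short libraries than every control. STAT5B and STAT6 had the same order in CPM, yet their TMM-scaled changes in TACI short against control were -0.05 and -0.03, not called. For STAT3, the change in TACI short minus that in TACI long was 0.87 on the log2 scale (edgeR adjusted p = 1.05e-14). The same difference for PIM2 was 0.90 (edgeR adjusted p = 2.62e-13). For STAT3, the rise in TACI short is the weak side, since leaving out any 1 control library ended its call (0.11 to 0.13 on the log2 scale).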

How the results depend on the processing

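Of 452 values of single members under alternatives, 439 kept their direction and their side of the threshold, 7 reversed, 4 lost and 2 gained a call. All 114 counts of called members and genes were within 1.5 times the main count. The reversals were all in TACI short against control: STAT5B at 0.0355 with upper-quartile factors, 0.0823 with column totals and 0.0283 without TACI short 2 and 3, and STAT6 at 0.0557, 0.1027, 0.0217 under the same settings and 0.0103 with the filter of 1 CPM in 3 libraries. STAT6 gained a call among these with column totals. For the lost and gained calls of STAT3 and SOCS3 given with those genes, the cause was not tested. In the fit without TACI short 2 and 3, the lone TACI short library is assumed to vary like the other groups. Leaving out 1 library in turn gave 6 to 7 members called in TACI long, 5 to 6 in TACI short and 8 between the lines. With a replicate block 6, 6 and 8 members were called, with 8620, 10501 and 11495 of all genes, and the block changed no call of a member. Member counts here include SOCS3, which passed the main filter only through TACI short. Depth limits SOCS2, SOCS3 and CISH: 3 counts correspond to 0.0599 to 0.0744 CPM.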

Other observations

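Genes around the pathway were read from lists of cytokines, receptors and PIM partners. Of 20 tested receptors that signal through JAKs, 2 were called higher and 9 lower in TACI long, and 11 higher and 1 lower in TACI short, beside 51.1% and 62.6% of all genes called either way. IL2RG and IL15RA, among the 11, passed the low-count filter only through TACI short and had to be higher. IL15RA is also among the 9 called lower in TACI long. It had 1 control and 0 TACI long libraries over the filter level, so that call is near the floor. Without TACI short 2 and 3 the list had 10 called higher and 2 lower of 21 tested, and its median log2 change went from 0.58 to 0.33. IL21R, the interleukin 21 receptor upstream of STAT3, went from 146 to 150 CPM in the controls to 44.6 to 47.0 CPM in TACI long, a fall of 3.26-fold (edgeR adjusted p = 7.25e-19). IL10RA, the interleukin 10 receptor chain, rose 3.49-fold in TACI long and 1.72-fold in TACI short (edgeR adjusted p = 7.03e-18 and 3.21e-11). Of 7 tested cytokine genes of this kind, 3 were called lower in TACI long and 5 higher in TACI short, where 25.9% of all genes were called lower and 31.5% higher. IL15, among the 5, passed the filter only through TACI short and had to be higher. It is also among the 3 called lower, with 1 control and 0 TACI long libraries over the filter level, so that call is near the floor. IL10, a ligand that signals through STAT3, was at 11.2 to 12.2 CPM in control, 3.41 to 4.35 in TACI long and 54.3 to 56.0 in TACI short.

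Of 11 PIM substrates and partners, 4 were called higher and 4 lower in TACI long, and 6 higher and 3 lower in TACI short, beside 51.1% and 62.6% of all genes called either way. CDKN1A, the cell cycle inhibitor p21 and 1 of the 6, was at 14.6 CPM in TACI short 1 and at 67.8 and 63.4 CPM in TACI short 2 and 3, the libraries with raised macrophage markers. Without those 2 libraries 5 were called higher and 4 lower, and the median log2 change of the list turned from 0.25 to -0.11. CDKN1B, the cell cycle inhibitor p27, fell 1.99-fold in TACI long and rose 1.90-fold in TACI short (edgeR adjusted p = 1.54e-13 and 8.88e-14). CXCR4, a homing receptor, rose 1.96-fold and 2.68-fold (edgeR adjusted p = 9.35e-13 and 6.69e-16). FOXO1, a transcription factor, rose 1.58-fold in TACI long and fell 1.33-fold in TACI short (edgeR adjusted p = 1.37e-11 and 3.29e-08). The phosphatase gene CDC25A fell 1.62-fold in TACI short (edgeR adjusted p = 7.67e-12).

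SOCS6 was at 0.0675 CPM in TACI short 1 and at 1.09 and 1.3 CPM in TACI short 2 and 3, the libraries with raised macrophage markers, and was not called in any comparison. SOCS6, CDKN1A, IL2RG and IL15RA were singled out after their values were seen.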
